A study of Camelus dromedarius with 30 samples.

Results

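The dehydration response of the dromedary kidney was compared between its cortex and its medulla. For each gene, the change from control to dehydration in the medulla was subtracted from the change from control to dehydration in the cortex, which is the interaction of tissue and dehydration. The comparison used 20 of the 30 libraries of the series, 5 for each of cortex control, cortex dehydration, medulla control and medulla dehydration. All 15074 genes that passed a filter on low counts, of 22444 genes in the count table, were tested. The camels (Camelus dromedarius) were males of 4 to 5 years, the control animals drank freely, and the dehydrated animals went without water for 20 days. Each of the 10 camels gave a piece of cortex and a piece of medulla, from which poly(A) RNA was sequenced. The pieces are whole tissue, so fewer cells of a type and less RNA per cell cannot be told apart in these values.

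The cortex holds the glomeruli, where blood is filtered, and the proximal tubules, which take back most of the filtered water, salt, glucose and amino acids. The medulla holds the loops of Henle and the collecting ducts, and its interstitium is kept salty so that water can be drawn out of the urine when vasopressin opens the collecting ducts to water. The salt and urea around the cells therefore differ between cortex and medulla. Cholesterol, which kidney cells make as well as take up, is a main lipid of their membranes.

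The libraries held 12634346 to 20005136 read pairs counted on genes, and the cortex libraries of control camels were the shallowest (12634346 to 15443065). Levels are given in CPM (counts relative to the counted pairs of the library after TMM scaling), which compare a gene between libraries and not genes with each other. The tissue labels were checked on 200 genes with higher levels in the medulla and 200 with higher levels in the cortex of rehydrated camels, libraries that the comparison did not use. The medulla-enriched genes summed to 23819 to 37704 CPM in the 10 medulla libraries and to 2801 to 7029 CPM in the 10 cortex libraries, without overlap. Within the cortex they summed to 2801 to 4511 CPM in control and 3905 to 7029 CPM in dehydrated camels, with the highest value in dehydrated camel 3. The cortex-enriched genes summed to 114998 to 149613 CPM in the cortex of control camels and 81926 to 120353 CPM in that of dehydrated camels, and to 4698 to 29331 CPM in the medulla. Of 12 listed proximal tubule markers, 4 were measured (SLC22A8, SLC13A3, GATM and MIOX). Measured means, here and below, that a listed gene was tested and could be matched by its symbol. Only 3753 of the tested genes carried a symbol, so other listed genes may be among those without one. The 4 summed to 2030 to 4420 CPM in the cortex of control camels and to 845 to 1570 CPM in that of dehydrated camels, without overlap. Singly, none of the 4 had an adjusted p under 0.05 there (0.172 to 0.462, edgeR). UMOD, the uromodulin gene that marks the thick ascending limb, was at 2790 to 4460 CPM in the cortex of control camels and 4550 to 7450 CPM in that of dehydrated camels, again without overlap. What these shifts contribute to the results that follow was not tested.

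**Figure D1:**
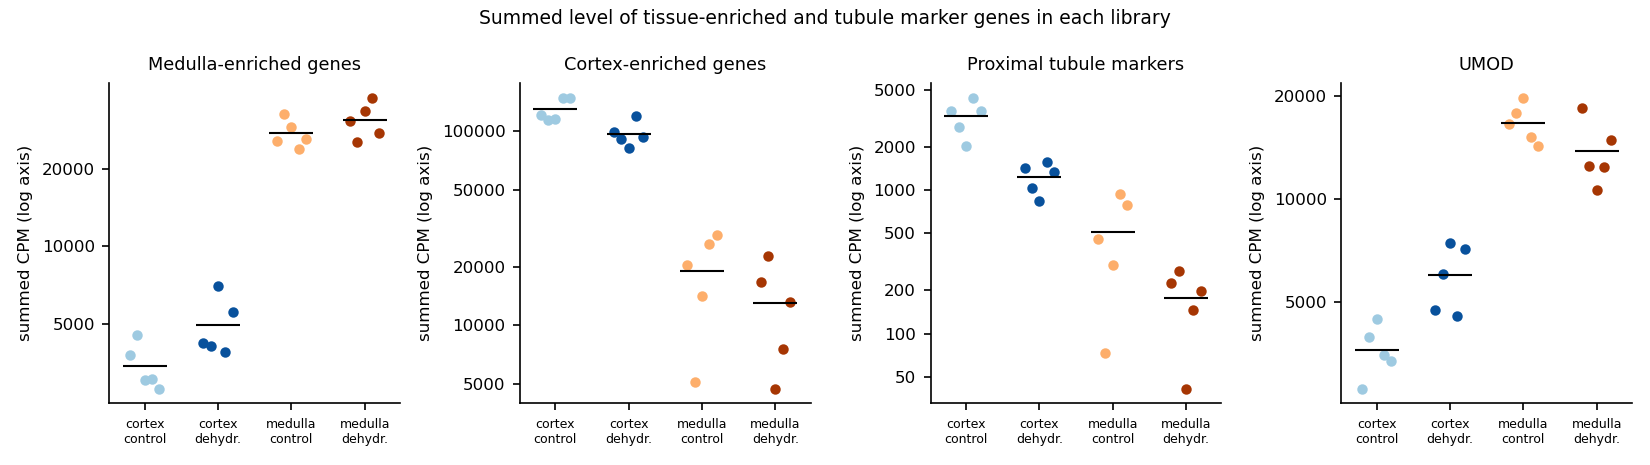
Summed level (CPM, log axis) in each of the 20 libraries of medulla-enriched genes, cortex-enriched genes, proximal tubule markers and UMOD, by tissue and condition (points are libraries, bars are means of 5). In the cortex, the proximal tubule markers lie at 845 to 1570 CPM in dehydrated camels and 2030 to 4420 CPM in control camels, and UMOD lies higher in dehydrated than in control camels.

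The response to dehydration differed between the tissues for 5 genes, 0.0332% of those tested (edgeR, quasi-likelihood, adjusted by Benjamini and Hochberg, adjusted p under 0.05). The change was more positive in the cortex for each of them, and 4 of them, WNT7B, PVALB, SLC27A3 and MYO1A, are described here. WNT7B, PVALB and MYO1A rose in the cortex, with no DEG call in the medulla. SLC27A3 rose in the cortex and fell in the medulla. In each of the 10 camels, with the tissues paired by library number, the cortex level minus the medulla level was also taken in log2 CPM. For all 5 genes the 5 dehydrated camels lay apart from the 5 control camels, as they did for 328 of the tested genes (2.18%). The 5 genes were picked on this same contrast, so their separation is a description.

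WNT7B (ENSCDRG00005012180, chromosome 12, 64204956 to 64257775 on the minus strand of CamDro2) encodes a secreted Wnt ligand that the collecting duct epithelium makes and that the medulla needs to form. In the cortex of control camels 1 to 5 it was at 0.766, 0.145, 1.29, 1.04 and 1.3 CPM. In the cortex of dehydrated camels 1 to 5 it was at 11.1, 23.2, 37.8, 12.1 and 22.2 CPM. Every dehydrated camel lay above every control camel, although the control values rest on only 2 to 14 counted read pairs per library. In the medulla WNT7B was at 135, 134, 161, 82.9 and 120 CPM in control camels and at 109, 134, 187, 131 and 122 CPM in dehydrated camels, and these values overlapped. The log2 fold change was 4.59 (SE 0.40, n = 5 per group, adjusted p = 1.93e-06, edgeR) in the cortex and 0.11 (SE 0.30, adjusted p = 0.916) in the medulla. The difference of the responses was 4.48 (SE 0.50, adjusted p = 0.000253, edgeR), and the cortex of dehydrated camels remained below the medulla. In the rehydrated camels, which the comparison did not use, the gene was among the 200 most medulla-enriched, and its dehydrated cortex levels were highest in camel 3, the library with the highest sum of medulla-enriched genes. Among these 200 genes 18 (9%) rose in the cortex and 23 (11.5%) had a more positive response in the cortex at an unadjusted p under 0.05, beside 1.63% and 5.19% of all tested genes, and their median difference of responses was -0.08, beside 0.02. The part of medulla-enriched RNA in the level of WNT7B was not tested.

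PVALB (ENSCDRG00005020625, chromosome 12, 57432821 to 57450634, minus strand) encodes parvalbumin, a calcium-binding protein of the cytosol that is listed as a marker of the distal convoluted tubule. Its cortex levels were 1.02, 1.02, 1.19, 0.870 and 0.743 CPM in control camels and 4.81, 5.81, 3.17, 4.71 and 4.21 CPM in dehydrated camels, without overlap. Its medulla levels were 2.15, 1.93, 3.17, 2.17 and 1.96 CPM in control camels and 2.25, 1.42, 0.809, 1.29 and 1.07 CPM in dehydrated camels. There the groups overlapped through dehydrated camel 1. Of the tissues of each camel, the medulla had the higher level in all 5 control camels and the cortex in all 5 dehydrated camels. Its log2 fold change was 2.22 (SE 0.29, adjusted p = 0.000440, edgeR) in the cortex and -0.73 (SE 0.27, adjusted p = 0.218) in the medulla, a difference of 2.95 (SE 0.40, adjusted p = 0.00260). Its level is low, with 8 to 14 counted pairs per library in the cortex of control camels. The sum of the 2 measured markers of the distal convoluted tubule, PVALB and the far more abundant calbindin gene CALB1, was 665 to 2280 CPM in the cortex of control camels and 494 to 856 CPM in that of dehydrated camels. In control camels CALB1 averaged 1585 CPM in the cortex and 182 CPM in the medulla, the reverse order to PVALB (0.968 and 2.28 CPM). The level of PVALB is therefore not read here as a measure of this segment.

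SLC27A3 (ENSCDRG00005017215, chromosome 21, 7068206 to 7072807, plus strand) encodes a member of the fatty acid transport protein family that activates fatty acids to their CoA esters. In the cortex it was at 12.6, 9.15, 15.1, 16.6 and 14.7 CPM in control camels and at 22.4, 24.4, 21.2, 23.5 and 22.8 CPM in dehydrated camels. In the medulla it was at 35.96, 35.7, 47.5, 29.8 and 33.5 CPM in control camels and at 25.8, 17.2, 12.7, 13.9 and 17.0 CPM in dehydrated camels. The groups did not overlap in either tissue, and the directions were opposite. The log2 fold change was 0.75 (SE 0.19, adjusted p = 0.0326, edgeR) in the cortex and -1.07 (SE 0.18, adjusted p = 0.00371) in the medulla, a difference of 1.82 (SE 0.26, adjusted p = 0.00445). Of the 59 genes that were DEGs in both tissues, SLC27A3 was the only one whose tissues changed in opposite directions.

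MYO1A (ENSCDRG00005016667, chromosome 12, 383786 to 400920, minus strand) encodes the myosin that ties the actin core of brush border microvilli to the membrane. Its cortex levels were 1.02, 0.799, 0.496, 0.348 and 1.39 CPM in control camels and 2.67, 2.27, 3.63, 4.28 and 2.95 CPM in dehydrated camels, without overlap. Its medulla levels were 5.97, 7.37, 9.46, 3.35 and 2.96 CPM in control camels and 2.93, 2.52, 1.96, 3.37 and 4.21 CPM in dehydrated camels, with overlap. The log2 fold change was 1.95 (SE 0.39, adjusted p = 0.00879, edgeR) in the cortex and -0.95 (SE 0.34, adjusted p = 0.198) in the medulla, a difference of 2.91 (SE 0.52, adjusted p = 0.0494). The cortex control values rest on 4 to 15 counted pairs. The difference stood at the threshold, and it was not past it with the animal as a block (2.88, adjusted p = 0.227, edgeR), with limma-voom (2.86, adjusted p = 0.115) or with the RNA integrity number as a covariate (2.95, adjusted p = 0.106). It passed without any 1 of cortex control 3 and 5, cortex dehydration 1, medulla control 4 and 5 or medulla dehydration 5, and was lost without any 1 of the other 14 libraries (adjusted p from 0.0566 to 0.143, edgeR).

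**Figure D2:**
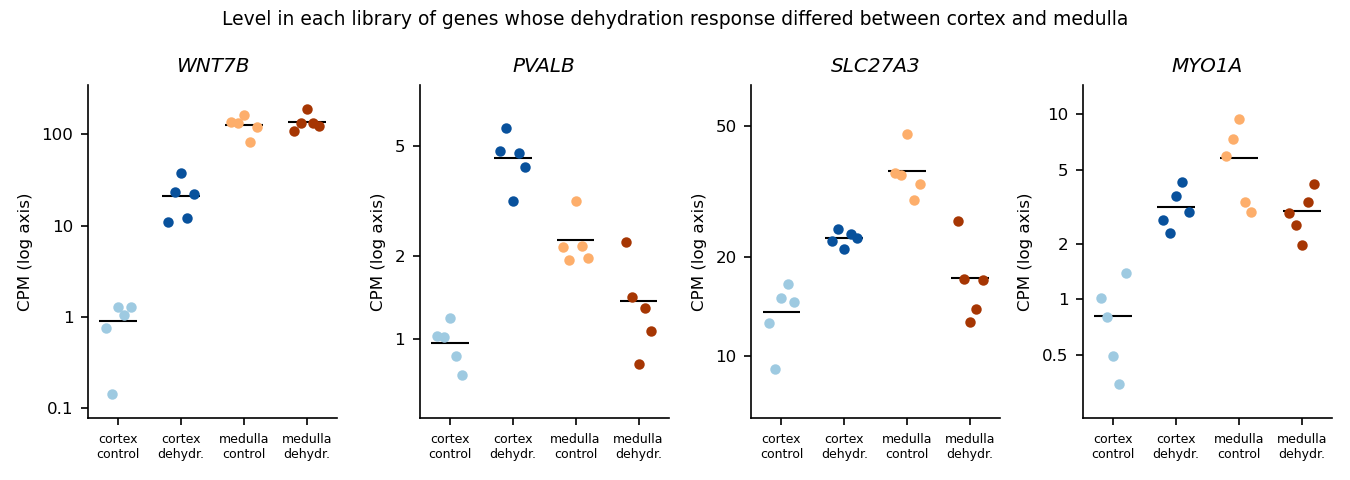
Level (CPM, log axis) in each of the 20 libraries of 4 genes whose dehydration response differed between cortex and medulla (points are libraries, bars are means of 5). WNT7B reaches 11.1 to 37.8 CPM in the cortex of dehydrated camels, and SLC27A3 moves in opposite directions in the tissues.

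With the camel as a block, WNT7B, PVALB and SLC27A3 passed (adjusted p = 0.00322, 0.0201 and 0.0327, edgeR), and they also passed in each of the 30 fits that left out 1 library or 1 camel. The fourth gene past the threshold with the block was CHI3L1, which is described with the injury genes below. The count of 5 genes rose to 26 without cortex control 3, to 14 without medulla control 4 and to 9 without cortex dehydration 1. It fell to 3 without any 1 of cortex control 1, cortex dehydration 3 and 5, medulla control 1 and 3 and medulla dehydration 3 and 4. Without both libraries of a camel it was 11 (dehydrated camel 1), 10 (control camel 4), 8 (control camel 3), and 3 for control camel 1 and dehydrated camels 2 and 3. DESeq2 called 116 genes, the 5 among them.

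In the cortex, 246 genes rose (1.63%) and 212 fell (1.41%) in dehydrated camels, and in the medulla 48 rose (0.318%) and 139 fell (0.922%) (DEGs, adjusted p under 0.05, edgeR). Of the 399 genes called in the cortex and not in the medulla, 3 passed for the interaction (edgeR), 228 had an unadjusted p under 0.05 for it, and 321 (80.5%) had a fold change of the same sign in the medulla. Of the 128 genes called in the medulla and not in the cortex, 0 passed for the interaction (edgeR), 63 had an unadjusted p under 0.05 for it, and 107 (83.6%) had the same sign in the cortex. With the camel as a block the interaction passed for 2 of the 399 and 1 of the 128, which was CHI3L1, and with DESeq2 for 59 and 10, fits that were added for these genes after the data were seen. Over all 15074 tested genes, 1376 had an unadjusted p under 0.05 for the interaction, and the responses of the tissues had a Spearman correlation of 0.229. Both sets were picked as called in a single tissue, which by itself favours a low p for the interaction, so these counts are descriptions. The share with the same sign was not taken over all tested genes, so these shares have no background beside them. The 59 genes called in both were 12.9% of the cortex DEGs and 31.6% of the medulla DEGs, and 58 of them changed in the same direction. With 5 camels per group, the interaction was measured with a median SE of 0.348 in log2 units, beside 0.248 for the response of the cortex and 0.244 for that of the medulla.

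**Figure D3:**
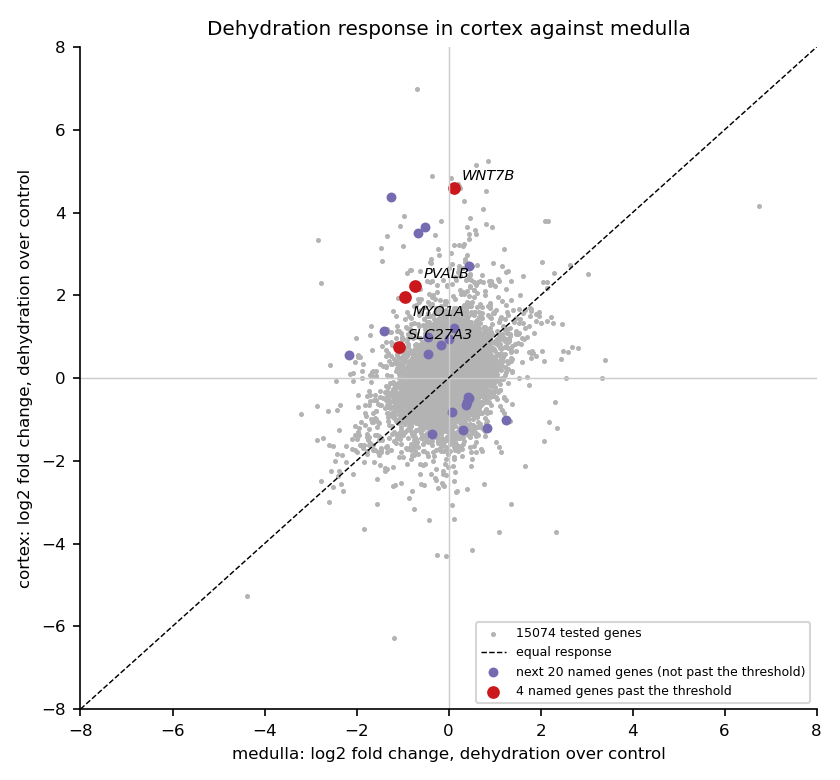
Log2 fold change in dehydration in the cortex (vertical) against the medulla (horizontal) for the 15074 tested genes, with 4 of the 5 genes past the threshold of the interaction in red and the next 20 named genes in purple. The dashed line marks equal responses, and each red gene lies above it.

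Before adjustment, 782 genes had a more positive response in the cortex (5.19%) and 594 a more negative one (3.94%) at p under 0.05. The 20 genes next in rank that carried a symbol and averaged at least 1 CPM did not pass the threshold (adjusted p from 0.0688 to 0.109, edgeR), so their values are given as such. In 11 of them the response was more positive in the cortex and in 9 more negative. The per-camel differences did not overlap between conditions in 17 of the 20, beside 328 (2.18%) of all tested genes. The 20 were ranked on this same contrast, so their separation is a description.

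Among these genes, the more positive responses in the cortex included carriers and enzymes. GC encodes the vitamin D-binding protein, and its cortex levels were 9.61, 3.48, 5.85, 3.22 and 1.86 CPM in control and 17.3, 84.6, 360, 10.2 and 26.8 CPM in dehydrated camels. Its medulla levels were 52.4 to 633 CPM in all 10 camels, its difference of responses was 5.63 (SE 1.10, adjusted p = 0.0909, edgeR), and without cortex dehydration 3 this was 4.10. RBP7, a cellular retinol-binding protein, had a difference of 4.17 (SE 0.93, adjusted p = 0.109), and its cortex levels in dehydrated camels were 0.840, 8.72, 24.5, 2.14 and 14.3 CPM. GC, RBP7 and WNT7B were each highest in the cortex of dehydrated camel 3. GPIHBP1, which anchors lipoprotein lipase on capillary endothelium, was at 0.371 to 1.31 CPM in the cortex of control camels and 3.44 to 6.17 CPM in that of dehydrated camels, with a difference of 2.26 (SE 0.48). SLCO3A1, an organic anion transporter, was at 16.3 to 25.8 and 38.0 to 51.3 CPM in the same groups, with a difference of 1.08 (SE 0.22). CNKSR3, a scaffold protein that takes part in the control of the epithelial sodium channel by aldosterone, was at 23.3 to 41.6 and 47.6 to 64.0 CPM, with a difference of 0.96 (SE 0.21). KYAT1, an aminotransferase of the kynurenine pathway, had 0.58 (SE 0.15) in the cortex and -0.45 (SE 0.15) in the medulla.

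The other positive differences came from the guanine nucleotide exchange factor ARHGEF19 (1.45, SE 0.30), the actin-bundling palladin gene PALLD (0.95, SE 0.21), the neurofilament gene NEFM (2.55, SE 0.55) and the linker histone gene H1-2 (2.73, SE 0.59). H1-2 fell in the medulla (log2 fold change -2.17, SE 0.41, adjusted p = 0.00990, edgeR), from 11.0 to 39.7 CPM in control to 2.56 to 10.7 CPM in dehydrated camels. FRMD7, a FERM domain protein gene, was at no more than 2 counted pairs in each cortex library of control camels, so no fold is given. It was at 0.0763 CPM in the cortex of dehydrated camel 1 and at 0.726 to 0.850 CPM in the other 4.

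For 8 of the 9 genes with a more negative response in the cortex the fitted changes of the tissues had opposite signs, beside 1080 (78.5%) of all genes with an unadjusted p under 0.05. None of the 9 was a DEG in the medulla, where only 0.318% of all tested genes rose and 0.922% fell. RPS6KA5, the kinase MSK1 that phosphorylates histone H3 and CREB, was at 8.53 to 19.2 CPM in the cortex of control camels and 4.54 to 7.02 CPM in that of dehydrated camels, a fall of the cortex (log2 fold change -1.25, SE 0.23, adjusted p = 0.00496, edgeR) with 0.32 (SE 0.22) in the medulla. TBC1D7, a subunit of the TSC complex that restrains mTORC1, was at 137 to 211 and 45.8 to 79.3 CPM in the cortex, and its log2 fold change was -1.36 (SE 0.15) there and -0.37 (SE 0.14) in the medulla. PIGB and PGAP1 both act on GPI anchors, PIGB by adding a mannose and PGAP1 by removing a fatty acid from the inositol. Their differences were -0.996 (SE 0.19) and -2.06 (SE 0.44). HARBI1, a gene derived from a transposase, had -1.04 (SE 0.19), the RNA polymerase I factor TAF1B -0.93 (SE 0.19), the glutathione cycle enzyme GGCT -0.90 (SE 0.20), the lysosomal transporter SLC46A3 -0.87 (SE 0.19) and the lysyl oxidase-like gene LOXL4 -2.25 (SE 0.48).

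**Figure D4:**
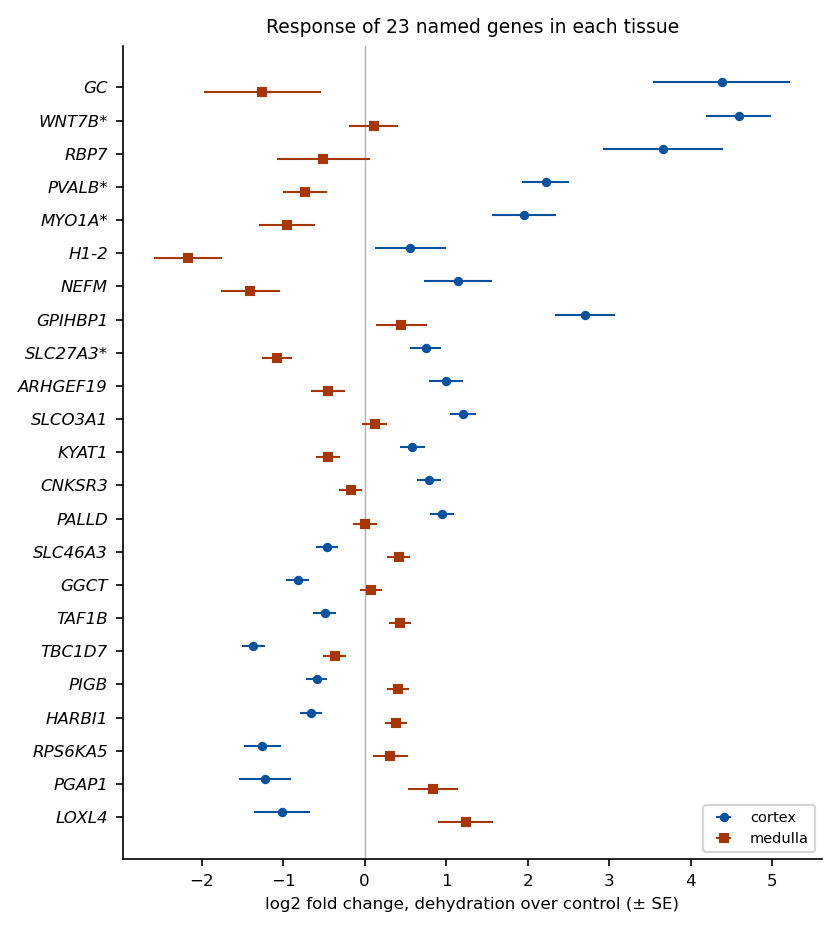
Log2 fold change in dehydration in the cortex (circles) and the medulla (squares), with SE, of 23 named genes ordered by the difference of the responses. FRMD7 is left out because its cortex control libraries hold at most 2 counted pairs, and asterisks mark 4 genes past the threshold of the interaction.

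Genes of cholesterol synthesis were lower in both tissues of dehydrated camels, with the more negative fitted changes in the medulla. Of 20 listed genes 19 were measured, and 12 of these fell in the cortex and 18 in the medulla, while none rose in either tissue (DEGs, edgeR). The median log2 fold change was -1.15 in the cortex and -1.76 in the medulla, beside 0 and 0.01 over all tested genes. In all 19 the fitted change was less negative in the cortex, with a median difference of 0.51, and 8 had an unadjusted p under 0.05 in that direction and 0 in the other. With the RNA integrity number as a covariate, 16 of the 19 differences were positive. Symbols came almost all from the lists of changed genes and proteins that accompany the article, so the measured members are in part chosen on these camels. Among the 3753 tested genes with a symbol, 4.85% fell in the cortex and 3.17% in the medulla, and 8.71% had a more positive and 6.82% a more negative response in the cortex at an unadjusted p under 0.05. Of the same genes 5.28% rose in the cortex and 1.09% in the medulla. These shares also stand beside the counts of the lists below, where a count of 0 in a short list says little.

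The summed level of the 19 genes shows where the tissues parted. In the cortex it was 2160, 2600, 2460, 2530 and 3230 CPM in control camels and 1230, 1320, 1240, 1640 and 1240 CPM in dehydrated camels. In the medulla it was 2820, 2670, 3240, 1910 and 2560 CPM in control camels and 811, 776, 714, 743 and 790 CPM in dehydrated camels. The tissues overlapped in control camels, and in dehydrated camels every medulla library lay below every cortex library.

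By step of the pathway, the early enzymes included ACAT2 and HMGCS1. HMGCS1, which makes HMG-CoA, went from 69.5 to 22.6 CPM in the cortex and from 258 to 42.5 CPM in the medulla as group means, a difference of 0.98 (SE 0.41, unadjusted p = 0.0260, adjusted p = 0.462, edgeR). ACAT2, which joins acetyl-CoA units at the entry, had a log2 fold change of -0.35 (SE 0.19, adjusted p = 0.347) in the cortex and -1.35 (SE 0.19, adjusted p = 0.000603) in the medulla.

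MVD, which makes isopentenyl diphosphate, had a difference of 1.09 (SE 0.30, unadjusted p = 0.00182, adjusted p = 0.234, edgeR), and ACAT2 one of 0.999 (SE 0.27). MVD was at 28.3 to 48.8 CPM in the cortex of control camels and 21.4 to 30.1 CPM in that of dehydrated camels, with overlap, whereas in the medulla it was at 24.3 to 45.1 and 8.08 to 14.3 CPM without overlap. FDFT1, the squalene synthase, had 0.92 (SE 0.27), FDPS, the farnesyl diphosphate synthase, 0.88 (SE 0.29), LSS, the lanosterol synthase, 0.84 (SE 0.35), and DHCR7, the reductase of 7-dehydrocholesterol, 0.74 (SE 0.24). SQLE, which oxidizes squalene, fell from 491 to 157 CPM in the cortex and from 178 to 37.8 CPM in the medulla, a difference of 0.60 (SE 0.36, unadjusted p = 0.117). For CYP51A1, IDI1, MSMO1, SC5D and MVK the differences were 0.39, 0.30, 0.26, 0.35 and 0.16, each with an SE of 0.21 or more.

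**Figure D5:**
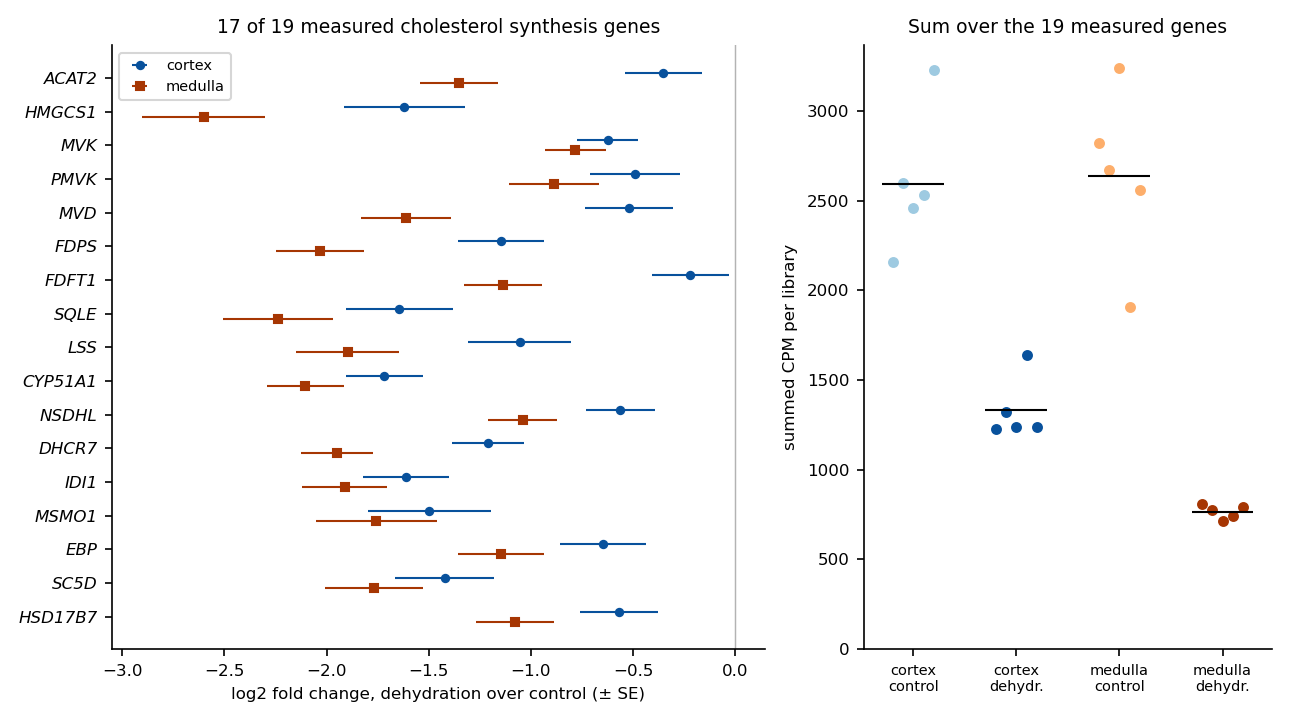
Left, log2 fold change in dehydration (± SE) of 17 of the 19 measured cholesterol synthesis genes in the cortex (circles) and the medulla (squares), in the order of the list. Right, the summed CPM of the 19 in each of the 20 libraries (bars are means of 5), with the medulla of dehydrated camels at 714 to 811 CPM and their cortex at 1230 to 1640 CPM.

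SREBP2 is the transcription factor that turns these genes on when sterols are scarce, and 5 of 8 listed genes of uptake and regulation were measured. In the cortex 2 fell (INSIG1 and STARD4) and in the medulla 4, among them both of these and SREBF2. The difference of responses of SREBF2, which encodes SREBP2, was 0.87 (SE 0.34, unadjusted p = 0.0183, adjusted p = 0.424). The median over the 5 was 0.59.

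Among 10 of 15 listed genes of fatty acid synthesis, 3 fell and 1 rose in the cortex, and 7 fell and 1 rose in the medulla, with a median difference of -0.01. ACLY, which makes cytosolic acetyl-CoA, had a log2 fold change of -0.01 (SE 0.12) in the cortex and -0.58 (SE 0.12, adjusted p = 0.0242, edgeR) in the medulla, a difference of 0.56 (SE 0.17, unadjusted p = 0.00434, adjusted p = 0.287). The elongase gene ELOVL6 had a difference of 0.82 (SE 0.38, unadjusted p = 0.0438). ACSBG1, an acyl-CoA synthetase, went the other way. It was at 0 to 0.464 CPM in the cortex and 0.167 to 0.573 CPM in the medulla of control camels, and at 2.31 to 4.00 and 12.7 to 82.9 CPM in dehydrated camels. It rose in both tissues (adjusted p = 0.00271 and 1.65e-06, edgeR) with a difference of -2.61 (SE 1.09, unadjusted p = 0.0265, adjusted p = 0.463). Its control levels were near 0 CPM in both tissues, so the size of this difference rests on few counts. Of 8 measured genes of fatty acid oxidation and the peroxisome, 2 fell and 1 rose in the cortex and 1 rose in the medulla, with a median difference of -0.26. ACADVL, the dehydrogenase of very long chain acyl-CoA, was at 1197 to 1600 and 754 to 1191 CPM in the cortex and at 228 to 400.3 and 365 to 565 CPM in the medulla, control before dehydrated camels. Its difference was -0.92 (SE 0.24, unadjusted p = 0.00104, adjusted p = 0.184, edgeR). Of 12 measured genes of oxidative phosphorylation and the citrate cycle, 3 fell in the cortex and 6 in the medulla, the median difference was 0.15, and 0 had an unadjusted p under 0.05 for the interaction.

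Water and ion transport of urine concentration was covered by 13 of 24 listed genes, of which 3 rose and 1 fell in the cortex and 1 fell in the medulla. The median difference was 0.44, with 3 genes more positive and 2 more negative in the cortex at an unadjusted p under 0.05. AQP1, the water channel of the proximal tubule and thin descending limb, was at 3214, 2767, 3005, 3690 and 4581 CPM in the cortex of control camels and 5261, 4531, 7017, 10440 and 10090 CPM in that of dehydrated camels, with overlap through control camel 5 and dehydrated camel 2. In the medulla it was at 3695 to 6182 and 3738 to 4839 CPM, and its difference was 1.23 (SE 0.33, unadjusted p = 0.00130, adjusted p = 0.197, edgeR). SLC8A1, the sodium-calcium exchanger of the distal nephron, was at 58.9, 75.2, 28.8, 45.3 and 49.1 CPM in the cortex of control camels and 7.33, 8.26, 11.7, 7.88 and 7.48 CPM in that of dehydrated camels, without overlap. In the medulla it was at 1.56 to 8.81 and 2.06 to 9.37 CPM, and its difference was -2.47 (SE 0.58, unadjusted p = 0.000375, adjusted p = 0.122). The cotransporter gene SLC12A7 had a difference of 0.63 (SE 0.28, unadjusted p = 0.0327) and the exchanger gene SLC9A7 -0.94 (SE 0.42, unadjusted p = 0.0356). For the water channels of the collecting duct the differences were -0.60 (SE 0.33) for AQP2 and 0.99 (SE 0.59) for AQP3, with unadjusted p of 0.0896 and 0.109. AQP3 rose in the cortex (2.35, SE 0.44, adjusted p = 0.00591, edgeR), from 5.81 to 9.66 CPM to 25.8 to 58.2 CPM, and had 1.36 (SE 0.41, adjusted p = 0.122) in the medulla.

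Of 3 measured genes of organic osmolyte handling, the betaine carrier gene SLC6A12 and the taurine carrier gene SLC6A6 rose in the cortex (1.58 and 0.99 on the log2 scale, adjusted p = 0.0371 and 0.0242, edgeR), with 0.96 and 0.62 in the medulla, and 0 had an unadjusted p under 0.05 for the interaction. Among 8 measured transporters of the proximal tubule, 2 fell in the cortex and 1 in the medulla, with a median difference of -0.16. SLC3A1, alone of the 8, had a positive fitted change in the cortex (0.66, SE 0.23, adjusted p = 0.124, edgeR). SLC13A1, the sulfate cotransporter, was at 156 to 270 and 38.9 to 87.5 CPM in the cortex of control and dehydrated camels, with a difference of -1.45 (SE 0.58, unadjusted p = 0.0208, adjusted p = 0.432), and the part of the proximal tubule content in it was not tested. The 4 summed proximal tubule markers were lower in the cortex of dehydrated camels, as given above, and were at 73.0 to 935 and 41.3 to 274 CPM in the medulla. Their median log2 fold change was -1.34 in the cortex and -1.73 in the medulla, and none of the 4 was a DEG in either tissue. All 4 differences of responses (median 0.38) were smaller than their SE, which ran from 0.645 to 0.993. None of 9 measured chaperone genes was a DEG in either tissue or had an unadjusted p under 0.05 for the interaction, and their median difference was -0.14. Counts of 0 among 9 genes are near the shares of all tested genes with a symbol, given above.

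Of 6 measured genes of tubule injury and repair, 2 rose in the cortex and 1 in the medulla. CHI3L1, a secreted chitinase-like glycoprotein, was at 0.0870 to 3.19 CPM and 0.856 to 3.97 CPM in the cortex of control and dehydrated camels. In the medulla it was at 12.3, 11.0, 13.6, 3.25 and 7.68 CPM in control camels and at 190, 38.5, 32.04, 63.95 and 158 CPM in dehydrated camels, without overlap. Its difference was -3.34 (SE 0.86, adjusted p = 0.170, edgeR) without the block and -3.10 (adjusted p = 0.0327) with the animal as a block. MYC had a difference of 1.04 (SE 0.48, unadjusted p = 0.0416), and TNFRSF11B, the decoy receptor osteoprotegerin, averaged 0.0145 CPM in the cortex of control camels, too low for a fold. Of 7 measured extracellular matrix genes 0 were DEGs, the median difference was 0.19, and that of SPARC was 0.87 (SE 0.29, unadjusted p = 0.00722, adjusted p = 0.330). Only 2 of 15 listed genes of Wnt signalling were matched by symbol, WNT7B and LEF1. LEF1, a nuclear partner of beta-catenin, had a difference of 0.40 (SE 0.63, unadjusted p = 0.535).

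Among markers of other cell types, UMOD had a difference of 1.01 (SE 0.28, unadjusted p = 0.00169, adjusted p = 0.229, edgeR), the intercalated cell gene ATP6V1B1 0.40 (SE 0.17, unadjusted p = 0.0277), the endothelial gene PECAM1 0.42 (SE 0.18, unadjusted p = 0.0297) and the smooth muscle gene ACTA2 1.35 (SE 0.41, unadjusted p = 0.00327). CALB1 of the distal convoluted tubule had -1.498 (SE 0.73, unadjusted p = 0.0525). The 3 measured endothelial markers summed to 220 to 269 CPM in the cortex of control camels and 356 to 423 CPM in that of dehydrated camels, and to 443 to 471 and 437 to 695 CPM in the medulla. The single measured immune cell marker was at 57.0 to 147 and 76.8 to 306 CPM in the cortex, and the 2 listed blood markers summed to 21.7 to 46.9 and 31.2 to 51.0 CPM. These 2 moved in opposite directions. As group means, HBB went from 8.77 to 2.18 CPM in the cortex and from 12.0 to 2.165 CPM in the medulla (adjusted p = 0.104 and 0.0683, edgeR). ALB, the larger part of the sum, went from 26.8 to 38.5 and from 27.6 to 31.25 CPM. The part of these cell type markers in the results was not tested.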

How the data were processed

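The authors trimmed the reads, aligned them to CamDro2 and deposited counts of read pairs per gene, made with featureCounts 1.6.2 (reverse-stranded, Ensembl release 100) and not normalized. The sources disagree on the aligner (STAR or Rsubread). Count columns were matched to samples by the library names in the sample descriptions. The exon length column was deposited with no further unit (other) and was not used for levels. The 20 libraries were analysed in R 4.3.3 with edgeR 4.0.16: filterByExpr (minimum count 10, minimum total 15), TMM, 4 group means, quasi-likelihood tests, and p-values adjusted by Benjamini and Hochberg over 15074 genes. The common biological coefficient of variation was 31.1%, so the camels and not the counting set the precision of all but low counts. Standard errors are the fold change over the square root of F, and log2 CPM used a prior count of 2. The lowest index of dispersion between replicates was 16.6, where counting noise alone gives about 1, so no library was a copy of another.

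The sample titles number the libraries within each tissue and condition and name no camel. The tissues were paired by this number, and the names of the 20 libraries carry matching numbers, so the pairing is an inference. After removal of group means, the cortex and medulla of a camel correlated from -0.147 to 0.344 across genes, over 0.1 in 6 of 10 camels. The animal as a block, DESeq2 1.42.0, limma-voom 3.58.1, other filters and scaling, all 30 libraries, the RNA integrity number, and each library and camel left out were alternatives.

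Symbols were paired with 3794 genes from the article's lists, its text and RefSeq. Named were genes past the threshold, then those next by p with a symbol and at least 1 CPM up to 25, and list members with an unadjusted p under 0.05; a few others (AQP2, AQP3, SQLE and further members of the lists) were chosen after their values were seen. The members and lists were chosen with earlier results of these data known. The enriched genes were those of at least 20 CPM in the tissue. Of the listed genes, 3 of 14 for interferon, 1 of 15 immediate-early and 2 of 13 clock genes were measured, with 0 at an unadjusted p under 0.05 for the interaction. Podocyte, adipocyte and collecting duct principal cell markers had 1, 1 and 3 measured members, with 0 as well. No urothelium marker was matched by symbol. Listed genes that were not matched may still have counts under identifiers without a symbol. A few genes that these rules name are not reported here.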

Additional observations from a re-analysis of the deposited data

Results flagged for a closer look

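The dehydration response differed between cortex and medulla, by a test of the difference itself, for WNT7B (4.48 in log2 units), PVALB (2.95), SLC27A3 (1.82) and MYO1A (2.91), as reported above.

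Among the named genes, 1 library stood apart from the other 4 of its group in 10 of 100 groups of 5, where chance gives about 1 in 20. In the cortex of dehydrated camels, GC was at 360 CPM in camel 3 beside 10.2 to 84.6 CPM in the others, FRMD7 at 0.0763 CPM in camel 1 beside 0.726 to 0.850, and SLC46A3 at 177 CPM in camel 4 beside 125 to 130. In the cortex of control camels SLCO3A1 was at 25.8 CPM in camel 5 beside 16.3 to 17.8. In the medulla of control camels PVALB was at 3.17 CPM in camel 3 beside 1.93 to 2.17, LOXL4 at 13.6 CPM in camel 3 beside 5.57 to 7.78, KYAT1 at 248 CPM in camel 5 beside 187 to 197, and CNKSR3 at 19.7 CPM in camel 2 beside 26.8 to 29.4. In the medulla of dehydrated camel 1 GGCT was at 13.8 CPM beside 15.7 to 16.4 and PALLD at 210 CPM beside 159 to 173.

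In the cortex of the rehydrated camels, WNT7B averaged 11.7 CPM, and each of these 5 libraries lay above all 5 control libraries (0.145 to 1.3 CPM). The rehydrated libraries entered none of the main comparisons. They were used in the fit of all 30 libraries and to choose the tissue-enriched genes.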

How the results depend on the processing

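The 5 genes became 116 with DESeq2 (44 of them with a more negative response in the cortex), 3 at an adjusted p under 0.01 and 26 at one under 0.1. With the animal as a replicate block, which pairs the tissues of a camel, 4 genes passed, 3 of them among the 5. The other edgeR and limma-voom settings gave 4 to 6. The cortex count of 458 became 1010 with DESeq2, and 117 and 894 at the stricter and looser thresholds. The medulla count of 187 became 551 with DESeq2, 283 with limma-voom, and 56 and 339 at these thresholds. The share of medulla genes that rose was larger with DESeq2 (212 higher, 339 lower) than with edgeR (48 and 139). With 1 library or 1 camel left out, the counts ranged from 3 to 26 for the interaction, from 202 (without dehydrated camel 5) to 804 (without cortex control 3) in the cortex and from 74 (without dehydrated camel 3) to 288 (without cortex control 3) in the medulla. For the 25 genes past the threshold or next in rank, the difference kept its sign in all of these fits. The sign was not followed for each list member. Of the cholesterol synthesis genes, 10 to 15 fell in the cortex, 18 to 19 in the medulla, and 16 to 19 had a less negative change in the cortex over other tools, scaling, filters, all 30 libraries, the RNA integrity number and each library and camel left out. In both fits that pair the tissues of a camel it was 19, with a median difference of 0.53. These fits were chosen for this list after the data were seen. The causes of these changes were not tested. The 5 camels per group limit the interaction to large differences, and WNT7B, PVALB and MYO1A rest on few counts in the cortex of control camels.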

Other observations

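The 5 rehydrated camels had been without water for the same 20 days and then drank freely for 3 days, and their libraries were not part of the comparison. Levels here are CPM scaled over all 30 libraries, with the range of 5 camels. In the cortex, WNT7B was at 0.145 to 1.3 CPM in control, 11.1 to 37.8 CPM in dehydrated and 4.28 to 29.2 CPM in rehydrated camels, so that the last 2 groups overlapped. PVALB was at 0.742 to 1.19, 3.17 to 5.81 and 0.702 to 3.26 CPM in the same order. MYO1A was at 0.348 to 1.39, 2.27 to 4.28 and 0.632 to 1.53 CPM, and its rehydrated libraries all lay below the dehydrated ones. SLC27A3 was at 9.14 to 16.6, 21.2 to 24.4 and 14.7 to 32.4 CPM in the cortex, and at 29.8 to 47.4, 12.7 to 25.8 and 21.3 to 44.8 CPM in the medulla.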
